A study of Mus musculus with 8 samples.

Results

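The 10 genes described here encode products best known from mast cells and basophils: the granule proteases Cpa3, Mcpt8, Prss34 and Gzmb, the granule proteoglycan Srgn, the histamine-forming enzyme Hdc, the IgE receptor subunits Fcer1a, Ms4a2 and Fcer1g, and the cytokine Il4. They were matched by symbol and Ensembl identifier to 10 of the 55487 gene rows of each library. The genes were chosen by their levels in the comparison of miR652-KD with NTC, with Cpa3 in the lead, so their values in that comparison are given as a description, without a test.

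The libraries were Smart-seq2 bulk RNA-seq of sorted mouse hematopoietic stem cells (HSCs), of which 4 are miR652-KD, with a knockdown of the microRNA miR-652, and 4 are NTC, the non-target control. The labels give neither the strain, age, sorting gate nor knockdown method, nor whether replicates were separate animals, so any p-value reflects how far these libraries vary, and that variation may be technical. Counts assigned to genes ran from 14.02 to 16.76 M (M, mega) in the controls and from 14.68 to 19.89 M in the knockdown libraries. A count of 0 therefore allows a level of up to 0.151 to 0.214 counts per M (CPM) depending on the library (3 counts of its total, counting error only). All 16 listed HSC markers had reads in every library except Cd48, which was at 0 in miR652-KD replicate 3 and is known to be low on HSCs. Their sum was 3353 to 4010 CPM in NTC and 3204 to 3506 CPM in miR652-KD. However, 3 of the 16 did not overlap between groups, against 4.5% of the 14360 tested genes. These were Kit, Cd34 (506 to 521 against 253 to 342 CPM) and Ly6a (240 to 296 against 316 to 490 CPM). The annotated hairpin Mir652 had 1, 0, 0 and 2 counts in NTC replicates 1 to 4 and 5, 0, 0 and 0 counts in those of miR652-KD; this assay does not measure mature microRNAs, so it does not check the knockdown.

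Mast cells and basophils store histamine and proteases in granules, packed on proteoglycan chains, and release them when antigen crosslinks IgE held by the high-affinity receptor FcεRI. That receptor has a ligand-binding alpha chain, a signal-amplifying beta chain and a signalling gamma chain that is shared with other receptors of myeloid and NK cells. The transcription factor GATA2 acts in HSCs as well as in mast cells and basophils, and Cpa3 and Hdc transcripts are also known from blood stem and progenitor cells.

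The miR-652 strands are shown first because their seeds, bases 2 to 8 in capitals, define the sites that could be sought in the members (RefSeq, GRCm38.p6).
mmu-miR-652-3p: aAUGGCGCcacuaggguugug
mmu-miR-652-5p: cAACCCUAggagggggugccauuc
The seed complement of the 3p strand, GCGCCAT, occurred in the longest annotated 3′ UTR (GENCODE M21) of 0 of the 10 members and in that of 1.7% of 21020 protein-coding genes. TAGGGTT, the complement of the 5p seed, occurred in 0 of the 10 members and in 7.4% of those genes. Members' 3′ UTRs were 82 to 1950 bases long, against a median of 961 bases over all these genes.

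All 10 members matched the RefSeq promoter table (GRCm38.p6), with 12 windows of 300 bases (250 before to 50 after a transcript start), since Il4 and Srgn have a second start. The GATA motifs AGATAA and TGATAA, sought on both strands, lay in 5 of the 12 windows, those of Cpa3, Ms4a2, Fcer1a, Prss34 and the second start of Il4; 18.6% of all 32851 windows hold either motif. Ms4a2 had 3 copies, and Hdc, Fcer1g, Mcpt8, Gzmb and Srgn had neither of these forms. Other sequences with a GATA core, such as TGATAG upstream of Hdc, were not sought. Upstream bases are printed for Cpa3, the leading member, for Ms4a2, which has the most copies, for Prss34, which had no counts, and for Srgn, the most abundant member. AGATAA and TGATAA, on either strand, are in capitals.
Cpa3 (chr3:20242182-20242431, minus strand): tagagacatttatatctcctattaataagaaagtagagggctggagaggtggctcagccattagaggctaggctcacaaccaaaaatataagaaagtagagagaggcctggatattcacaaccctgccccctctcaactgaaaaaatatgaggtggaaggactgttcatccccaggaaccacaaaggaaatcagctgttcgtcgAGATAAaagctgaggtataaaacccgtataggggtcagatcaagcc
Ms4a2 (chr19:11623720-11623969, minus strand): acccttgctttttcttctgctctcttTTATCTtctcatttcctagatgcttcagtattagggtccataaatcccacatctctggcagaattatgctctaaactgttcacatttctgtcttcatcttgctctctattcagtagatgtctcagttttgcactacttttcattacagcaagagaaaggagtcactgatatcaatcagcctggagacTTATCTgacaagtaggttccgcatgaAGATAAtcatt
Prss34 (chr17:25298144-25298393, plus strand): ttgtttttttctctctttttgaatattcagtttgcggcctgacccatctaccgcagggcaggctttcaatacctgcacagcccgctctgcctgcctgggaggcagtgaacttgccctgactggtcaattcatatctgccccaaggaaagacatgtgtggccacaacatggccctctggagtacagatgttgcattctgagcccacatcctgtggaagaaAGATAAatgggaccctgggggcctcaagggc
Srgn (chr10:62527452-62527695, minus strand): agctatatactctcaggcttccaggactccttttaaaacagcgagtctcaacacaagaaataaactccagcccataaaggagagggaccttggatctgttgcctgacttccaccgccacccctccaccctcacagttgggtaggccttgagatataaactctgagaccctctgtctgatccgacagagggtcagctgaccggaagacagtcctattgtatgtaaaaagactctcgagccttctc
With the start site at 0, the first base of the motif lay at -46 in Cpa3 and -31 in Prss34, and those of the 3 copies in Ms4a2 at -224, -37 and -11. The E-box CAGCTG, which reads the same on both strands, lay in 4 of the 12 windows, at -59 in Cpa3, at -158 in Fcer1a, at 35 in Fcer1g and at -59 and -1 in Srgn, and 16.3% of all windows hold it. The E-box CATCTG, held by 17.2% of all windows, lay in windows of Fcer1g, Mcpt8, Prss34, Gzmb, Il4 and Srgn. The ETS motif GAGGAA, held by 28.3%, lay only in those of Fcer1a and Mcpt8. Motifs were thus present both in genes with counts in every library and in genes with none.

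Compared per length, as CPM per kilobase of exon (RPKM), the members spanned a wide range of levels. Srgn ran from 499 to 648 RPKM over the 8 libraries and Fcer1g from 36.1 to 151 RPKM, so these genes did not overlap with each other or with any other member. Il4 ran from 8.44 to 16.6 RPKM and Cpa3 from 1.43 to 22.2 RPKM, which overlapped. Within NTC the ranges of Cpa3 and Il4 overlapped as well, at 8.07 to 22.2 and 8.55 to 16.6 RPKM, whereas within miR652-KD Cpa3, at 1.43 to 5.57 RPKM, lay below Il4, at 8.44 to 14.01 RPKM. Mcpt8 (0 to 16.4 RPKM), Hdc (0 to 7.48 RPKM), Fcer1a (0 to 6.65 RPKM) and Ms4a2 (0 to 0.216 RPKM) were at 0 in 3 or more libraries and overlapped one another. Prss34 and Gzmb had 0 counts in all 8 libraries.

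**Figure D1:**
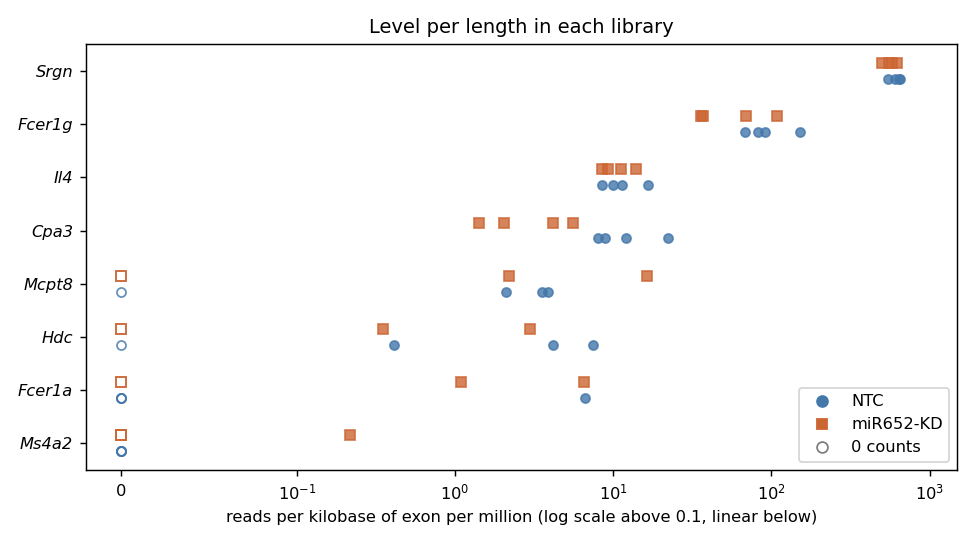
Level of each member per length (x axis, RPKM, log scale above 0.1 and linear below) in the 4 NTC (circles) and 4 miR652-KD libraries (squares); open symbols are libraries with 0 counts. Srgn and Fcer1g stand apart above the rest, and the lower members have libraries at 0.

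Cpa3 (ENSMUSG00000001865.2, mm10 chromosome 3, 20215620 to 20242181, minus strand) encodes carboxypeptidase A3, a protease of mast cell granules that is also used to mark early blood progenitors. Its level was 12.2, 18.4, 33.7 and 13.4 CPM in NTC replicates 1 to 4 and 8.45, 3.10, 2.16 and 6.35 CPM in those of miR652-KD, from 43 to 565 reads a library. Every miR652-KD library was below every NTC library, and NTC replicate 3 was the highest. Means were 19.4 ± 9.88 CPM for the controls and 5.02 ± 2.91 CPM for the knockdown (SD, n = 4), a ratio of 3.88 of NTC to miR652-KD. The log2 difference was -2.0, with a pooled SD within groups of 0.78 on the log2 scale, close to the median of 0.68 over 3429 tested genes within 2-fold of its level. Cpa3 was the 1 member whose groups did not overlap. Over all 14360 tested genes, every miR652-KD library lay below every NTC library in 2.15%, and the groups did not overlap in either direction in 4.5%; since Cpa3 was picked on this contrast, nothing is read from its count.

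Markers of other cell types also differed between libraries. Of the 8 mast cell defining markers, Cma1, Mcpt4, Tpsb2, Tpsab1, Mrgprb1 and Mrgprb2 had 0 counts in every library, which leaves Cpa3 and Mitf. The genes that define mature mast cells were thus mostly without reads, and the members are described as genes rather than as signs of that cell type. The 8 erythroid markers summed to 2292 to 5647 CPM in NTC and to 19.5 to 2273 CPM in miR652-KD, without overlap. Taken singly, 2 of the 8 did not overlap, Hbb-bt and Alas2, against 4.5% of all tested genes. Among 12 monocyte, macrophage and dendritic markers only Csf1r did not overlap, and it was higher in miR652-KD (0 against 0.352 to 8.18 CPM). The 9 neutrophil granule markers, all with reads in 1 or more libraries, summed to 9534 and 14823 CPM in NTC replicates 3 and 4, to 4908 CPM in miR652-KD replicate 1 and to 570 to 2950 CPM in the other 5 libraries. In miR652-KD replicate 1 that sum was almost all Elane (1920 CPM), Mpo (1979 CPM) and Prtn3 (957 CPM), and the other 6 markers were at 0 to 36.4 CPM there, against 212 to 3623 CPM in NTC replicates 3 and 4. Without NTC replicates 3 and 4 the log2 difference of Cpa3 was -1.75. The part of these markers' cells in the Cpa3 values was not tested. In bulk libraries fewer cells of a type and less RNA per cell cannot be told apart.

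**Figure D2:**
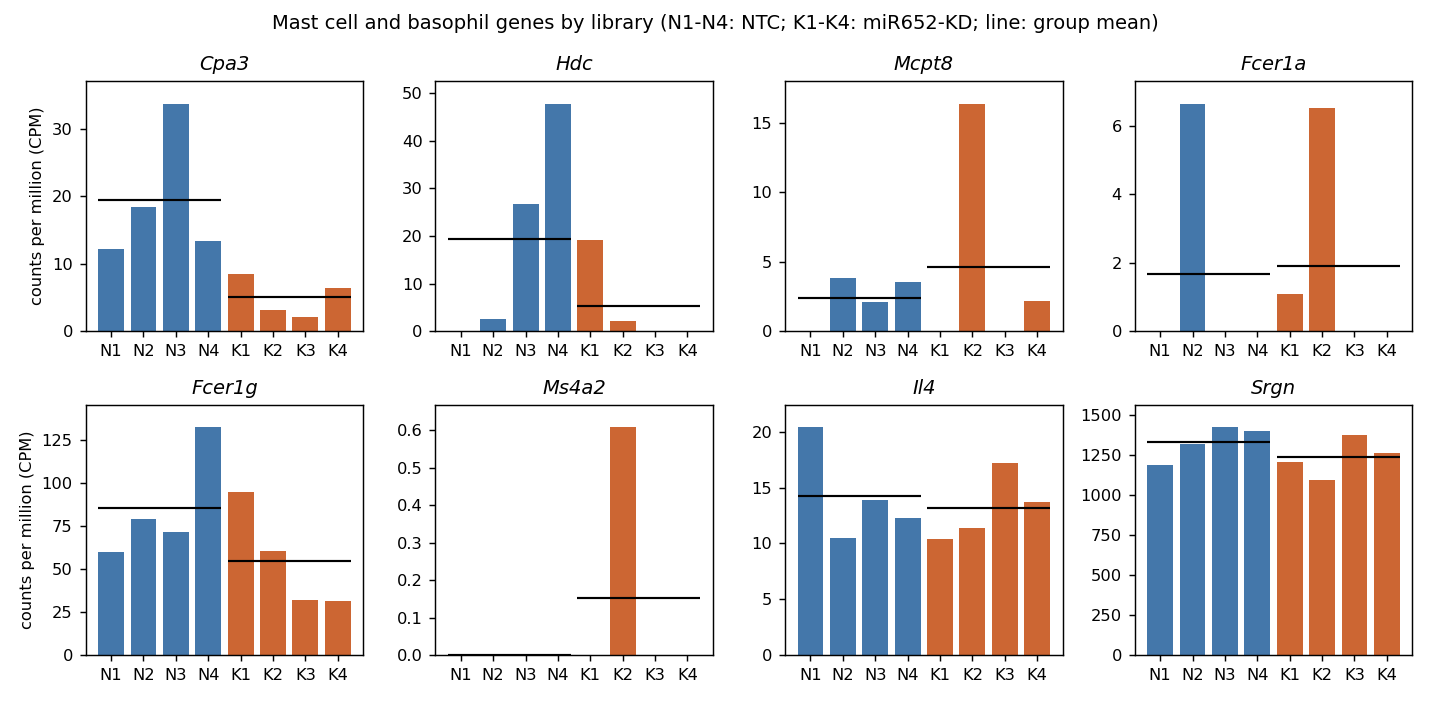
CPM (y axis, each panel with its own scale from 0) of the 8 members with counts, by library; bars are single libraries, N1 to N4 for NTC and K1 to K4 for miR652-KD, and horizontal lines are group means. Cpa3 shows no overlap between groups, Hdc, Mcpt8, Fcer1a and Ms4a2 have libraries at 0, and Srgn is even.

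Hdc (ENSMUSG00000027360.5, chromosome 2, 126593667 to 126619299, minus strand) encodes histidine decarboxylase, which makes histamine in mast cells and basophils and is also found in immature myeloid cells. It was at 0, 2.64, 26.8 and 47.8 CPM in NTC replicates 1 to 4 and at 19.1, 2.25, 0 and 0 CPM in those of miR652-KD. The groups overlapped, with 3 libraries high, 2 low and 3 without a count. Its means were 19.3 ± 22.5 CPM and 5.35 ± 9.26 CPM (SD, n = 4), and its pooled SD of 3.73 on the log2 scale compares with a median of 0.68 and a 95th percentile of 2.11 for tested genes of like level. The 3 high libraries, NTC replicates 3 and 4 and miR652-KD replicate 1, were also the 3 with the highest summed neutrophil granule markers, though of different makeup, as given above. NTC replicate 2 also held Elane (983 CPM), Mpo (1096 CPM) and Prtn3 (840 CPM), with Hdc at only 2.64 CPM. The part of these markers' cells in the Hdc values was not tested. The log2 difference was -2.32 over all libraries and 0.65 without NTC replicates 3 and 4. That omission was chosen after seeing the data and took out only the high NTC libraries, while the high miR652-KD replicate 1 stayed in. The turned sign follows from that choice, and nothing is read from it.

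The remaining granule proteases of the set lie in protease clusters that were largely silent. Mcpt8 (ENSMUSG00000022157.8, chromosome 14, 56082166 to 56085273, minus strand), a serine protease restricted among mature cells to basophils, was at 0, 3.85, 2.09 and 3.55 CPM in NTC replicates 1 to 4 and at 0, 16.4, 0 and 2.19 CPM in those of miR652-KD. The groups overlapped and miR652-KD replicate 2 was the highest of all libraries. The difference had no stable sign: the mean of log2 CPM differed by -0.69, and the log2 fold change that edgeR fitted was 0.95. Gzmb (ENSMUSG00000015437.5, chromosome 14, 56258838 to 56262260), granzyme B of cytotoxic cells and some mast cells, shares this cluster and had 0 counts throughout. Of the 15 protein-coding genes from Cma1 to Gzmb on chromosome 14 (55941451 to 56262260, 321 kb), 13 had 0 counts in all libraries and only Mcpt8 and its neighbour Ctsg were detected.

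Ctsg, the cathepsin G gene of neutrophil and mast cell granules, was at 0.404, 569, 338 and 803 CPM in NTC replicates 1 to 4 and at 583, 143, 0 and 86.0 CPM in those of miR652-KD. Both genes thus had few or no reads in NTC replicate 1 and miR652-KD replicate 3, but Ctsg was high in miR652-KD replicate 1, where Mcpt8 had none. Prss34 (ENSMUSG00000056399.2, chromosome 17, 25298394 to 25300165, plus strand), a basophil tryptase-like protease, is the first of 6 protein-coding genes up to Tpsg1 on chromosome 17 (25298394 to 25374442), and all 6 had 0 counts in every library. Expression of these silent genes was not detectable at this depth.

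**Figure D3:**
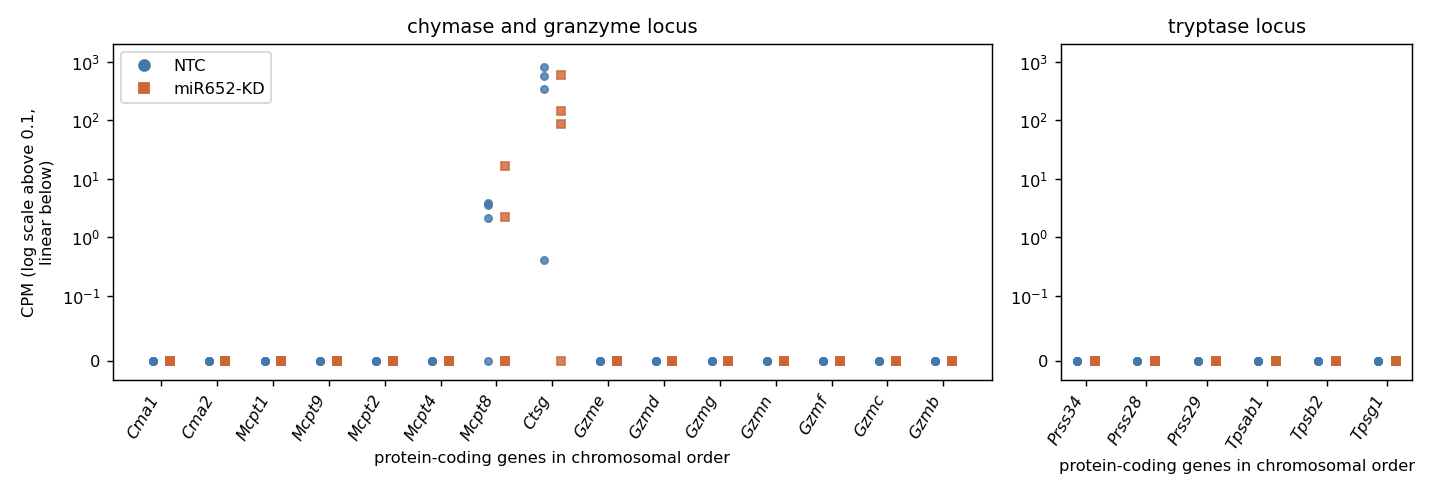
CPM (y axis, log scale above 0.1 and linear below) of the protein-coding genes in the protease clusters of chromosome 14 (left) and chromosome 17 (right), in chromosomal order, with circles for the 4 NTC and squares for the 4 miR652-KD libraries. Only Mcpt8 and Ctsg are above 0.

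Srgn (ENSMUSG00000020077.14, chromosome 10, 62493833 to 62527451, minus strand) encodes serglycin, the proteoglycan core on which granule proteases and histamine are stored, and is expressed widely in blood cells. It was at 1191, 1322, 1423 and 1398 CPM in NTC replicates 1 to 4 and at 1209, 1096, 1376 and 1262 CPM in those of miR652-KD. The groups overlapped, and the highest library was 1.30 times the lowest. The log2 difference was -0.11, with a pooled SD of 0.13, like the median of 0.14 over 134 tested genes of similar level.

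The IgE receptor chains differed in detection. Fcer1g (ENSMUSG00000058715.11, chromosome 1, 171229572 to 171234365, minus strand), the shared gamma chain, was at 59.6, 79.1, 71.5 and 132 CPM in NTC replicates 1 to 4 and at 94.5, 60.1, 32.2 and 31.6 CPM in those of miR652-KD. miR652-KD replicates 3 and 4 lay below all other libraries, while replicates 1 and 2 fell within the NTC range. The log2 difference was -0.74 with a pooled SD of 0.64, beside a median SD of 0.33 and a 95th percentile of 0.62 for tested genes of like level. The summed neutrophil granule markers were highest in NTC replicate 4, like Fcer1g, but next in NTC replicate 3, where Fcer1g was at 71.5 CPM, ahead of miR652-KD replicate 1, where it was at 94.5 CPM. Their part was not tested.

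Fcer1a (ENSMUSG00000005339.10, chromosome 1, 173221284 to 173227214, minus strand), the IgE-binding alpha chain, was detected in 3 libraries, at 6.64 CPM in NTC replicate 2 and at 1.09 and 6.51 CPM in miR652-KD replicates 1 and 2. Ms4a2 (ENSMUSG00000024680.12, chromosome 19, 11615523 to 11623719, minus strand), the beta chain, had 10 reads in miR652-KD replicate 2, or 0.608 CPM, and 0 in the other 7 libraries. A full set of receptor chains was therefore read only in miR652-KD replicate 2. That library also held the highest Mcpt8 level and both reads of Cd200r3, a basophil surface receptor, yet its Cpa3 level of 3.10 CPM was the second lowest. The 6 basophil defining markers summed to 15.9 to 21.0 CPM in NTC and to 11.5 to 35.0 CPM in miR652-KD. In the highest library, miR652-KD replicate 2, Mcpt8 gave 16.4 CPM and Il4 11.4 CPM of that sum. Il4 was the largest part in every other library. It was the whole sum in NTC replicate 1 (20.4 CPM) and miR652-KD replicate 3 (17.2 CPM).

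Il4 (ENSMUSG00000000869.12, chromosome 11, 53602982 to 53618669, minus strand), the type 2 cytokine interleukin 4 that basophils secrete, was at 20.4, 10.5, 13.9 and 12.3 CPM in NTC replicates 1 to 4 and at 10.4, 11.4, 17.2 and 13.7 CPM in those of miR652-KD. NTC replicate 1 was highest and the group ranges overlapped. Its log2 difference was -0.10 and its pooled SD 0.36, against a median of 0.65 for tested genes of like level. Unlike Il4, its cytokine neighbours were nearly silent: Il13 had 6 reads, all in miR652-KD replicate 1, and Il5 had 29 reads in 2 NTC libraries. The flanking genes Kif3a and Rad50 were at 19.3 to 39.3 CPM and 74.2 to 98.3 CPM. The annotated Il4 gene includes outer exons of a transcript that reaches towards Kif3a, which ends at 53601967, and gene counts do not show which exons the reads came from.

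Of the 10 members, 6 passed the filter on low counts (Cpa3, Hdc, Fcer1g, Mcpt8, Il4 and Srgn); Fcer1a, Ms4a2, Prss34 and Gzmb did not.

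A further 114 genes of mast cell and basophil function, in 7 lists by role, were taken from the fit across all genes. The lists were chosen with earlier results of these data known, so their shares beside those of all genes are a description. Of these, 85 were tested and 0 passed in either direction (edgeR quasi-likelihood, adjusted p below 0.05), against 0.0418% of all 14360 genes (6 genes). Unadjusted p fell below 0.05 for 13 of the 85, against 5.99% of all genes, and 59 of the 85 had a log2 fold change below 0, with a median of -0.20 beside -0.00 over all genes. DESeq2 gave 86 of the genes an adjusted p and called 2, Rab27a and Serpinb1a, both lower in miR652-KD, against 0.789% of all genes with an adjusted p (130 of 16479, of which 75 lower).

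The groups did not overlap in 6 of the 85 genes, against 4.5% of all genes in either direction and 2.15% lower in miR652-KD. All 6 were lower in miR652-KD: Kit, Slc18a2, Serpinb1a, Itga2, Chst11 and Rab27a, of which the last 3 were named after their values were seen. None of them passed edgeR's test, with adjusted p of 0.611 to 0.801. Slc18a2, the vesicular transporter that loads histamine and other monoamines into granules, averaged 280 ± 64.3 CPM in the controls and 193 ± 13.4 CPM after knockdown (SD, n = 4), with -0.53 as log2 fold change (SE 0.14). Kit, the stem cell factor receptor on which both mast cells and HSCs depend, averaged 518 ± 99.6 and 408 ± 23.3 CPM (SD, n = 4), with a fold change of -0.34 on the log2 scale (SE 0.12). Rab27a, a small GTPase of granule secretion, was at 112 CPM and 83.9 CPM on average (log2 fold change -0.42, SE 0.12). The values for Itga2, an integrin alpha chain, were 9.77 and 2.50 CPM, and for Chst11, a chondroitin sulfotransferase, 50.4 and 26.0 CPM.

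Among 19 genes of histamine, heparin and granule loading, all tested, 17 had values below 0 (median -0.32), and 0 passed. The SNARE gene Vamp8 was at 953 ± 55.7 and 906 ± 93.0 CPM (SD, n = 4; log2 fold change -0.07), and its regulator Stxbp2 had a log2 fold change of -0.09. Among 23 growth and surface receptor genes 15 were tested, 10 with values below 0 (median -0.34), and 0 passed. The granule membrane protein gene Cd63 had a log2 fold change of -0.11, and Crlf2, a chain of the TSLP receptor, one of 0.21. The mast cell receptor genes Mrgprb1 and Mrgprb2 had no reads.

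Of the 16 genes in the granule protease list 13 had 0 counts, and the 3 tested, Ctsg, Ctsc and Serpinb1a, include no other mast cell chymase or tryptase. Ctsc, the protease that activates granule serine proteases, had a log2 fold change of 0.30. Serpinb1a, which is an inhibitor of neutrophil serine proteases, was at 271 ± 69.6 and 160 ± 28.1 CPM (SD, n = 4; log2 fold change -0.76, SE 0.20). Its highest library, at 369 CPM, was NTC replicate 4, which also had the highest summed neutrophil granule markers. However, it was at 219 CPM in NTC replicate 1, where that sum was lowest (570 CPM). In miR652-KD replicate 1, with a sum of 4908 CPM, it was at 188 CPM. The part of these markers' cells was not tested.

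All 15 IgE receptor signalling genes were tested, 11 with values below 0 (median -0.20), and 0 passed. The adaptor gene Lat had a log2 fold change of -0.17, the exchange factor gene Vav1 one of -0.22 and the phosphatase gene Ptpn6 one of 0.02. Of 7 lipid mediator genes 5 were tested (median -0.13) and 0 passed, with Alox5ap of leukotriene synthesis at -0.13, the cyclooxygenase gene Ptgs1 at 0.03 and the phospholipase gene Pla2g4a at -0.21. Of 13 cytokine and chemokine genes 7 were tested (median -0.53) and 0 passed. The chemokine gene Ccl4 was at 44.2 ± 7.98 and 30.5 ± 6.67 CPM (SD, n = 4; log2 fold change -0.53), Ccl3 had a log2 fold change of -0.29 and Ccl9 one of 0.74.

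The 21 transcription factor genes were all tested and divided evenly, 11 below 0 and 10 above (median -0.01), with 0 past the threshold. Gata2, the GATA factor of HSCs and mast cells, averaged 355 ± 97.1 CPM in the controls and 430 ± 48.8 CPM after knockdown (SD, n = 4; log2 fold change 0.29, SE 0.18, edgeR adjusted p = 0.934). Its cofactor Lmo2 had a log2 fold change of 0.03 and the ETS factor Spi1 one of -0.01. The groups overlapped in Irf8, Gata2, Lmo2 and Spi1.

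**Figure D4:**
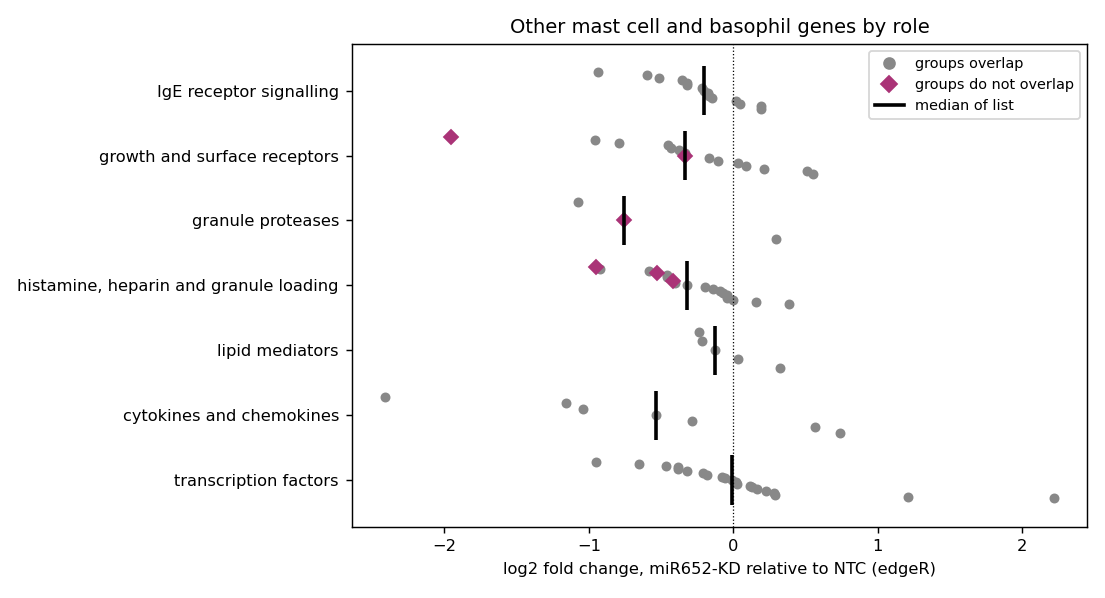
Log2 fold change of miR652-KD relative to NTC (x axis, edgeR) for the 85 tested genes of the 7 role lists; each point is a gene, diamonds mark the 6 genes whose groups do not overlap and black bars are list medians. Every list median lies below 0, with transcription factors on both sides (median -0.01), and no gene passed the threshold.

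The 5 genes with profiles nearest to Cpa3 were not in these lists. With 9230 genes ranked, a list gene was unlikely to be among 5 in any case, and genes below 10 CPM were not ranked. Their absence is therefore not read as a result. Likeness was the mean absolute difference of centred log2 CPM over the 8 libraries, among 9230 protein-coding genes of at least 10 CPM. The 5 nearest were Gtpbp3 (0.52 log2 units), Abhd13 (0.52), Zfp523 (0.52), Unc45a (0.53) and Fam174b (0.54), against a median of 1.04 over all ranked genes and 1.00 for a profile with no change. Gtpbp3, a mitochondrial tRNA-modifying GTPase, was at 21.4 to 27.5 CPM in NTC and 4.93 to 17.5 CPM in miR652-KD. Since the measure spans all 8 libraries, these genes were chosen for likeness in both the difference between groups and single libraries. All 5 were lowest in miR652-KD replicate 3, like Cpa3. Only Zfp523 and Unc45a were also highest in NTC replicate 3, where Gtpbp3 had its lowest NTC value (21.4 CPM). The groups overlapped in Abhd13, Zfp523 and Unc45a.

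**Figure D5:**
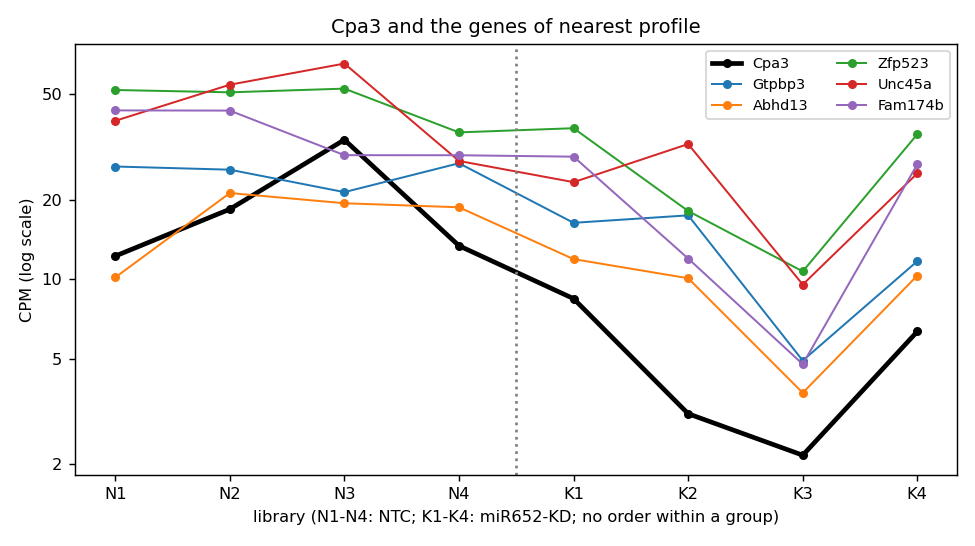
CPM (y axis, log scale) of Cpa3 (thick black line) and its 5 nearest genes by profile in the 8 libraries; lines join the libraries of a gene and replicates have no order. The 5 genes were picked for this likeness, which includes the low value in miR652-KD replicate 3.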

How the data were processed

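Bulk Smart-seq2 RNA-seq of sorted mouse HSCs was analysed in 8 libraries, 4 per group. The deposited files hold whole-number counts of reads for each gene, without normalization. Per the submitters' processing notes, HISAT2 2.1.0, HTSeq 0.11.2 and DESeq2 were used with mm10; their annotation release, like the strand setting, is not given in the sources used here, so reads of overlapping or antisense genes cannot be separated. The 5 HTSeq summary lines were left out of library sizes; reads outside genes made up 9.69% to 16.94% and ambiguous reads 8.94% to 12.28%. Symbols, positions and exon lengths came from GENCODE M21 of the same build, which matched 55394 of 55487 identifiers.

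CPM is relative to the sum over all gene rows. Log2 differences of members are means of log2 CPM (prior count 2), miR652-KD minus NTC. Other genes were tested with edgeR 4.0.16 (R 4.3.3; TMM, filterByExpr at a count of at least 10 and a sum of at least 15, quasi-likelihood F test with robust fits, Benjamini-Hochberg adjustment over 14360 genes, threshold 0.05). SE was obtained as log2 fold change over the root of F. Named genes were the members, the 3 most abundant genes per length of each role list, any list gene past the threshold and the 5 genes nearest to Cpa3 in profile. Alternatives were DESeq2 1.42.0, limma-voom (limma 3.58.1), scaling by RLE or upper quartile, no filter, other prior counts, the replicate block and leaving out libraries. On simulated data for 13681 genes of this comparison, 24% of 2-fold and 73.7% of 4-fold changes were recovered, and 6 unchanged genes were called. The changed genes were not drawn from those of lowest CPM, so the recovery does not cover them. Reads carry no molecular identifiers, so limits for 0 counts cover counting error only. The members and lists were chosen with earlier results of these data known.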

Additional observations from a re-analysis of the deposited data

Results flagged for a closer look

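Of 57 sets of 4 replicate values of the members and named genes, 6 had a library far from the other 3 by Dixon's criterion. It flags about 1 in 20 sets of normally distributed values, which sets with libraries at 0 are not. A set with 3 libraries at 0 is flagged by construction, as Ms4a2 in miR652-KD and Fcer1a in NTC were. The number of flags is therefore not set against chance. Hdc was at 19.1 CPM in miR652-KD replicate 1 against 0 to 2.25 CPM in the others of its group. In miR652-KD replicate 2, Mcpt8 was at 16.4 CPM against 0 to 2.19 CPM, Fcer1a at 6.51 CPM against 0 to 1.09 CPM, and Ms4a2 at 0.608 CPM against 0 in each other library. Fcer1a was at 6.64 CPM in NTC replicate 2 and at 0 in the other 3 NTC libraries. Lat, an adaptor of IgE receptor signalling, was at 74.1 CPM in miR652-KD replicate 1 against 125 to 131 CPM in the others.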

How the results depend on the processing

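The log2 difference of Cpa3 was -2.31 to -1.68 over its 15 alternatives, and leaving out each library in turn gave that same range; with the replicate block it was -2.0. The sign turned for some other members. Leaving out each library gave -2.10 to 0.25 for Mcpt8, -0.35 to 2.26 for Fcer1a and -0.24 to 0.09 for Il4, and without NTC replicates 3 and 4, an alternative chosen after seeing the data, Mcpt8 was at 0.32, Fcer1a at -0.63 and Hdc at 0.65. Mcpt8 had a fitted value of -0.98 with the replicate block. All 103 alternative values of members moved by less than their SD within groups. Leaving out a single library cannot move a value that far, and under a wide SD even a turned sign passes. No stability is therefore read from this. Genes past the threshold numbered 6 of 14360, but 130 with DESeq2, which was fitted without that filter to 23457 genes and gave 16479 an adjusted p, 1 with limma-voom and 0 with the replicate block (733 at an unadjusted p below 0.05). That number was 0 to 0 when single libraries were left out (789 to 992 at an unadjusted p below 0.05) and 0 without NTC replicates 3 and 4 (884 at an unadjusted p below 0.05); the cause was not tested. Among the other mast cell and basophil genes 0 passed and DESeq2 called 2, Rab27a (adjusted p = 0.049) and Serpinb1a (adjusted p = 0.0314). Of these genes, 85 to 94 were fitted over the alternatives, and 52 to 65 had values below 0. Their median was -0.22 to -0.13, against -0.02 to 0.02 for all genes. Without NTC replicates 3 and 4, those with every miR652-KD library below both remaining NTC libraries numbered 17 of 85, against 8.09% of all genes. Same-numbered replicates did not deviate together (correlations -0.033 to -0.010), so the numbers were not taken as pairs. Members with few reads are limited by depth.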
